A study of Mus musculus with 2 samples.

Results

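The hair bundle is the mechanically sensitive organ of the inner ear hair cell, and 8 genes that build it or turn its movement into an electrical signal were followed through the E16.5 mouse cochlea. They are Lhfpl5, Cdh23, Pcdh15, Ush1c, Myo7a, Espn, Grxcr1 and Myo6, chosen by symbol, and each matched 1 of the 32285 gene rows of both count tables. One library came from Emx2Cre;Ptch1f/f embryos, in which Cre driven from Emx2 meets a floxed Ptch1, the receptor that holds Hedgehog signaling off, and one came from wild-type embryos. Both were of a mixed 129/SvEv and C57BL/6N background and each pooled 8 cochleae, so single animals cannot be told apart. The study asked what Ptch1 and Shh do in the cochlear duct, where the Emx2-driven Cre is meant to act. Levels are given in CPM, transcript counts summed over a cell class of a library and scaled to the same total per class. Emx2 itself stood at 31.9 CPM in mutant epithelium and 18.3 CPM in wild-type epithelium. In mesenchyme it stood at 0.242 CPM in the mutant and 0.168 CPM in the wild type. With 1 library per genotype no difference between genotypes has a replicate check. Intervals are 95% and exact, and cover counting error only: Poisson for levels, Clopper-Pearson for shares, and conditional on the summed counts for ratios.

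A hair bundle is a staircase of stereocilia, fingers of crosslinked actin, whose neighbours are joined by tip links. Each tip link is made of CDH23 at its upper end and PCDH15 at its lower end, and pulls on a channel complex that includes LHFPL5, TMIE, CIB2 and the TMC proteins. Bundles are growing in the cochlea in late embryonic life, and loss of any of the 8 genes deafens mice.

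Lhfpl5 lies at chr17:28575641-28585679 on the forward strand (GRCm38), and Grxcr1 at chr5:68031835-68166398 on the forward strand. Cdh23 (chr10:60302748-60696490, reverse) and Pcdh15 (chr10:73099342-74649737, forward) share a chromosome, as do Ush1c (chr7:46195350-46238503, reverse) and Myo7a (chr7:98051060-98119524, reverse). Espn lies at chr4:152120331-152152371 on the reverse strand and Myo6 at chr9:80165031-80311729 on the forward strand. Genes on the opposite strand overlap Cdh23 (Vsir and Gm17455), Pcdh15 (Gm15398) and Myo6 (Gm27227), and Gm15397 lies within Pcdh15 on its own strand. No source used here says whether the counting used strand, so reads of these 3 genes cannot be set apart from those of their partners with certainty. The promoters of Lhfpl5 and Grxcr1 are shown because these genes had the most alike levels of any pair of the 8. The bases before each RefSeq start (GRCm38.p6, forward strand, 250 bases), at chr17:28575469-28575718 and chr5:68031585-68031834, read as follows, with CAGCTG or CAGATG in capitals. Both are forms of the E-box that basic helix-loop-helix factors such as ATOH1, the hair cell determinant, can bind.

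Lhfpl5: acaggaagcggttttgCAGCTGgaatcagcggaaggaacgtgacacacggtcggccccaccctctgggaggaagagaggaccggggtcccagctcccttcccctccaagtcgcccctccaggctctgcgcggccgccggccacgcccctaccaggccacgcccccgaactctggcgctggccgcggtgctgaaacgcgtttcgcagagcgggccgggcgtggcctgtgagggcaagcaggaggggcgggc

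Grxcr1: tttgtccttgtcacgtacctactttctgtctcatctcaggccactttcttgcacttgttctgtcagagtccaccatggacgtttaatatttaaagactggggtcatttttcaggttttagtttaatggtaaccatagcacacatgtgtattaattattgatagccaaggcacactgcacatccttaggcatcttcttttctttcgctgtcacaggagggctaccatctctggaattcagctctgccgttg

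CAGCTG reads the same on both strands and CAGATG was also sought as CATCTG. The Lhfpl5 promoter held 1 CAGCTG and the Grxcr1 promoter neither motif. Over all 11 RefSeq promoters of the 8 genes, 3 held either motif, 1 of Lhfpl5 and 2 of Espn, against 25.5% of 32851 promoters of the same length (4271 of them with CAGCTG and 4745 with CAGATG).

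The mutant table held 100135532 unique molecular identifiers (UMIs, each a tagged transcript) in 12326 barcodes, of which 8670 were kept, and the wild-type table held 61130806 in 6500 barcodes, of which 6108 were kept. A barcode stands for a droplet and usually a cell, and 25 barcode sequences occurred in both tables. Ptch1 stood at 184 CPM in mutant epithelium and 30.5 CPM in wild-type epithelium. Tags from transcript ends do not test whether the floxed part was removed. Gli1, a target of Hedgehog signaling, stood at 19.8 CPM in mutant epithelium and 2.03 CPM in wild-type epithelium. Wild-type epithelial barcodes held more transcripts of other lineages than mutant ones. The share with over 5 UMIs per 10000 from markers of mesenchyme, blood, macrophages, endothelium or melanocytes was 8.33% of mutant and 92.9% of wild-type hair cell barcodes, and 44.0% of mutant and 65.4% of wild-type other epithelium.

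Epithelial barcodes were called hair cells where at least 2 of 10 hair cell markers (Atoh1, Pou4f3, Gfi1, Barhl1, Lhx3, Ccer2, Otof, Chrna10, Rbm24, Pvalb) had a UMI. None of the 8 bundle genes was among the markers, so the rule did not use their UMIs, although a deeper barcode passes it more easily. By this rule 12 of 8670 mutant barcodes were hair cells (0.138%, 0.0715 to 0.242%) and 283 of 6108 wild-type barcodes (4.63%, 4.12 to 5.19%). Near the limit, 8 of the mutant and 125 of the wild-type hair cell barcodes had exactly 2 markers, and 183 mutant and 283 wild-type barcodes outside the class had 1. Hair cell barcodes held a median of 30289 UMIs in the mutant and 11039 in the wild type, and other epithelial barcodes 3692 and 7100.5. After thinning each epithelial barcode to 2000 UMIs, 3 of 1383 mutant (0.217%) and 104 of 1553 wild-type barcodes (6.70%) passed. The marker Pvalb was not particular to hair cells, at 173 CPM in wild-type hair cell barcodes and 859 CPM in wild-type neurons. In the mutant it stood at 8.22 and 1731 CPM. Without Pvalb in the rule, 8 mutant and 183 wild-type barcodes passed.

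As a class these barcodes held the hair cell markers, though not each of them did: Pou4f3, a defining hair cell factor, had UMIs in 4 of the 12 mutant and 124 of the 283 wild-type barcodes. The markers' summed level was 349 CPM in mutant hair cell barcodes and 16.48 CPM in other mutant epithelium, with Chrna10 at 0 in the hair cells and the other 9 detected. In the wild type it was 1224 CPM in hair cell barcodes, where all 10 were detected, and 47.6 CPM in other epithelium, where Barhl1 and Lhx3 were at 0. Of the wild-type class, 157 barcodes lay in a hair cell-like cluster and 114 in a cluster that took no name, led by S100a1, Tectb and Prr15. At Leiden resolution 2, 61 of these 114 fell in a prosensory-like part and 52 in a part led by Stmn3, Ttc9b and Sncg, which neurons also use. The 12 mutant barcodes were spread over 7 clusters, 2 of them in the hair cell-like one. Summed, they held 10725 CPM of Oc90, an otic gene best known from cells outside the sensory patches. Such sums weigh deep barcodes most: of the 608124 UMIs of the mutant class, 146371 and 148552 lay in 2 barcodes of a roof-like cluster.

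In wild-type cochleae, 6 of the 8 genes were at least 2-fold higher in hair cells than in other epithelium, where 6.68% of all genes tested were, and none was 2-fold lower, where 6.91% were. The other 2, Pcdh15 and Ush1c, stood at similar levels on both sides. The median log2 ratio of the 8 was 2.06, against -0.06 over the 14930 genes tested. Markers of other lineages summed higher in the same wild-type barcodes too. Those of red blood cells stood at 13553 CPM in hair cells and 2231 CPM in other epithelium. Those of neurons stood at 988 and 301 CPM and of mesenchyme at 2143 and 1349 CPM. The median barcode held 7.29 and 0.483 neuron marker UMIs per 10000, and 24.4 and 11.5 of mesenchyme. For red blood cells the medians were only 2.08 in hair cells and 1.61 in other epithelium, so those sums do not describe the usual barcode. Without barcodes holding mesenchymal, blood, macrophage, endothelial or melanocyte transcripts, which left 20 wild-type hair cell barcodes, the median log2 ratio was 3.79.

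The channel subunit gene Lhfpl5 and the bundle growth gene Grxcr1 set hair cells apart most. Lhfpl5 stood at 105 CPM in wild-type hair cells (95.5 to 116) and 1.86 CPM in other wild-type epithelium, a ratio of 56.8 (37.3 to 90.6). Grxcr1, whose glutaredoxin-domain protein acts in the shaping of stereocilia, stood at 87.6 CPM in wild-type hair cells and 1.13 CPM in other wild-type epithelium, a ratio of 77.5 (45.5 to 143). Hair cell barcodes held 23.8% of wild-type epithelial UMIs, yet 96.0% of those of Grxcr1 and 94.7% of those of Lhfpl5. Both genes thus had all but a small part of their epithelial transcripts in the hair cell class.

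The tip link genes differed from each other. Cdh23 stood at 6.72 CPM in wild-type hair cells from 26 UMIs and at 0.485 CPM in other wild-type epithelium from 6 UMIs, a ratio of 13.9 (5.58 to 41.2). Pcdh15 stood at 25.8 CPM in wild-type hair cells and 32.8 CPM in other wild-type epithelium, a ratio of 0.788 (0.627 to 0.983). Of the epithelial UMIs of Cdh23, 26 of 32 were in hair cell barcodes, while for Pcdh15 the share was 19.8%, below the 23.8% that the class held of all epithelial UMIs. Ush1c, which encodes harmonin, the scaffold at the upper end of the tip link, stood at 32.0 CPM in wild-type hair cells and 30.4 CPM in other wild-type epithelium, a ratio of 1.05 (0.852 to 1.29).

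The actin-based genes lay between these extremes. Myo7a, the myosin that joins harmonin in the tip link's upper anchor, stood at 16.54 CPM in wild-type hair cells and 3.55 CPM in other wild-type epithelium, a ratio of 4.66 (3.12 to 6.997). Myo6, the minus-end-directed myosin found at the base of the stereocilia, stood at 189 CPM in wild-type hair cells and 50.8 CPM in other wild-type epithelium, a ratio of 3.71 (3.33 to 4.14). Espn, which encodes the actin crosslinker espin, stood at 66.7 CPM in wild-type hair cells and 22.0 CPM in other wild-type epithelium, a ratio of 3.02 (2.54 to 3.60). About as many epithelial transcripts of Myo6 (53.7%), Espn (48.6%) and Myo7a (59.3%) came from hair cell barcodes as from the rest of the wild-type epithelium.

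**Figure D1:**
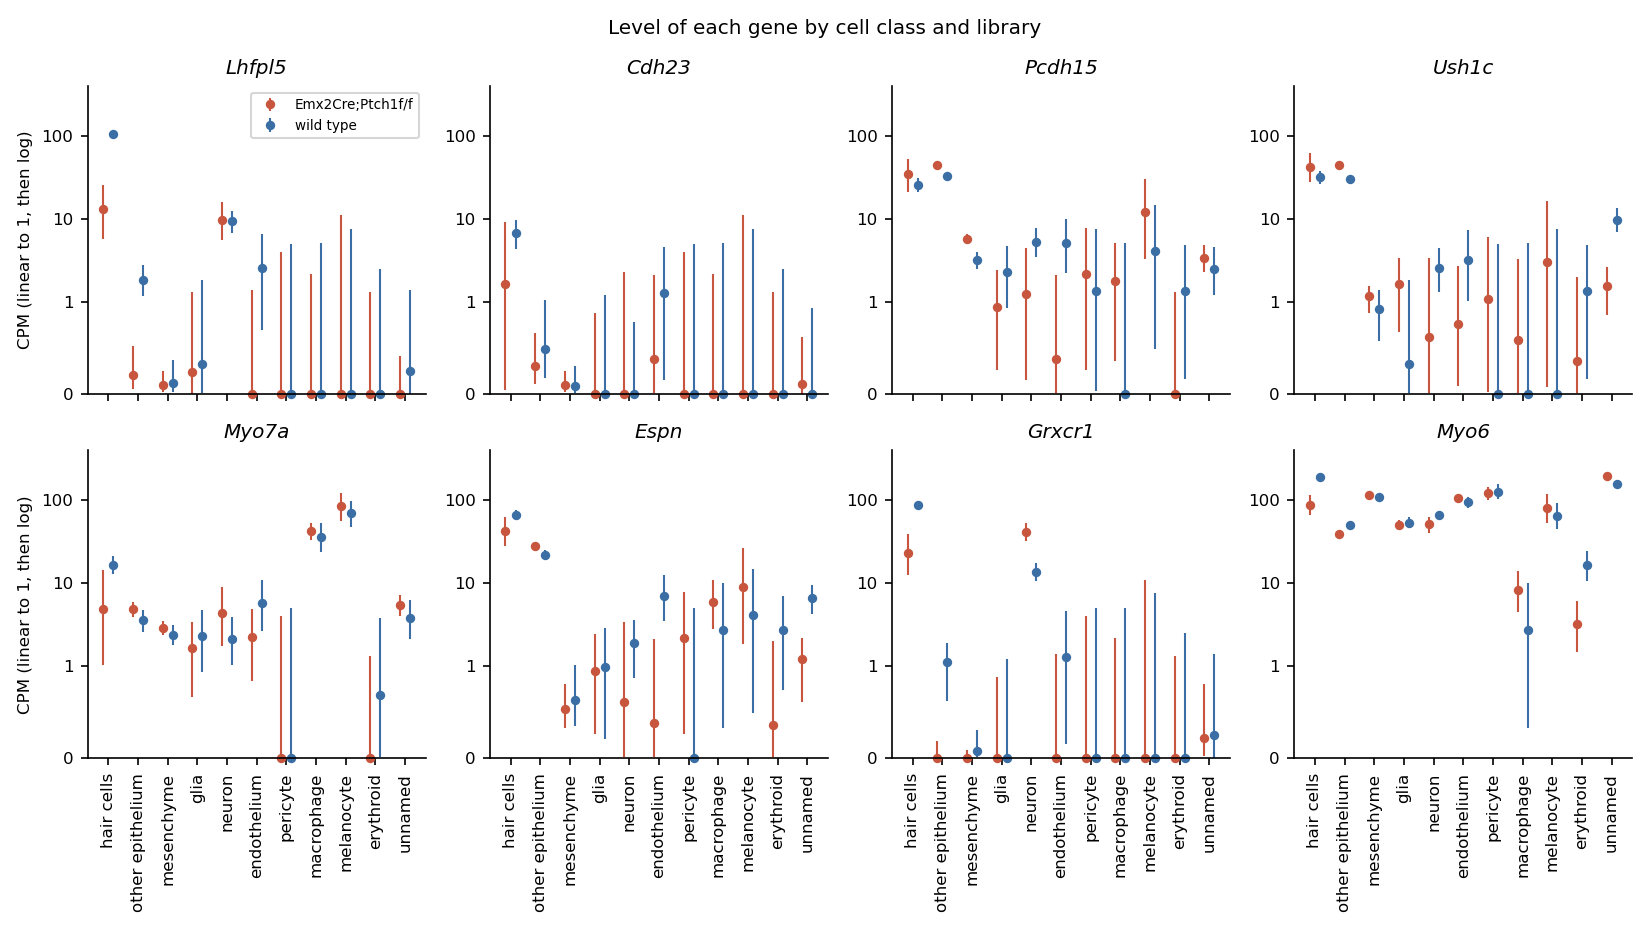
Level of each gene in CPM (linear up to 1, logarithmic above) by cell class, in the Emx2Cre;Ptch1f/f and wild-type libraries, with exact Poisson 95% intervals that cover counting error only. Lhfpl5 and Grxcr1 are high in wild-type hair cells (105 and 87.6 CPM). Outside the epithelium they are highest in neurons, at lower levels (9.36 and 13.6 CPM in the wild type). Myo6 is found at 93.8 CPM or more in wild-type mesenchyme, endothelium, pericytes and the unnamed class.

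The more hair cell markers a wild-type epithelial barcode held, the higher stood Lhfpl5, Grxcr1, Myo6 and Myo7a. Lhfpl5 stood at 0.552 CPM in barcodes with no marker, 5.404 with 1, 13.6 with 2, 49.3 with 3 and 227 with at least 4. Grxcr1 stood at 0.331, 3.30, 11.004, 30.3 and 194 CPM in the same order, and Myo6 at 48.5, 57.0, 64.7, 102 and 358 CPM. These 3 genes, and Myo7a, rank in the order of the number of markers. The barcodes share 1 library, and their median depth was 6562 UMIs with no marker and 12281 UMIs with at least 4. Espn stood between 19.4 and 28.8 CPM up to 3 markers and at 136 CPM with at least 4. Cdh23 stood at 1.29 CPM or less up to 3 markers and at 15.003 CPM with at least 4. Pcdh15 had no such order, at 27.9, 45.9, 12.9, 15.2 and 44.4 CPM, nor had Ush1c, at 33.8, 21.3, 21.4, 31.6 and 43.1 CPM. Barcodes with at least 4 markers were thus higher than those with none in all 8 genes, by the least for Ush1c.

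**Figure D2:**
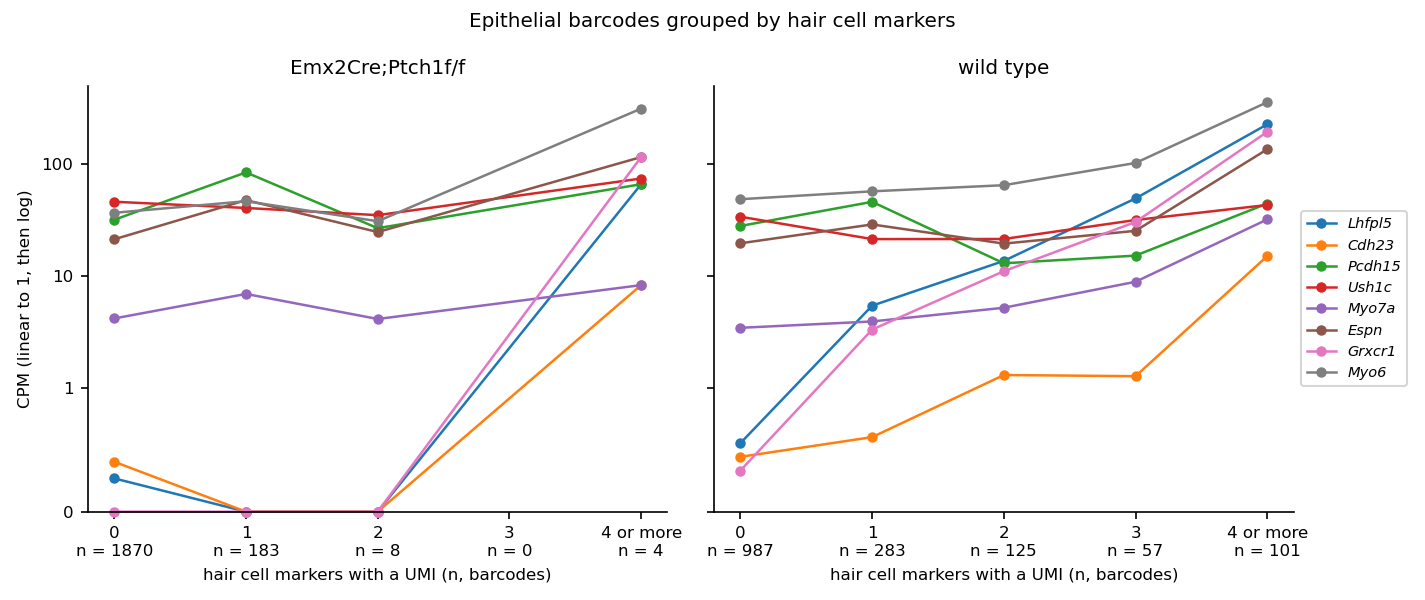
Level of the 8 genes in CPM (linear up to 1, logarithmic above) in epithelial barcodes grouped by how many of the 10 hair cell markers had a UMI, for each library, with the number of barcodes under each group. In the wild type Lhfpl5 runs from 0.552 to 227 CPM, and in Emx2Cre;Ptch1f/f epithelium Lhfpl5, Grxcr1 and Cdh23 are at 0 in the 8 barcodes with 2 markers.

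At an equal 2000 UMIs per barcode the genes still divided the same way. Of wild-type hair cell barcodes, 15.9% had an Lhfpl5 UMI and 12.7% a Grxcr1 UMI, against 0.236% and 0.157% of other wild-type epithelial barcodes. Without thinning, 41.0% of the wild-type hair cell barcodes had an Lhfpl5 UMI and 36.7% a Grxcr1 UMI. In mesenchyme, which should lack bundle proteins, the thinned Lhfpl5 share was 0.0244% in the mutant and 0.0357% in the wild type. The share with a Myo6 UMI was 21.9% in wild-type hair cells and 9.45% in other wild-type epithelium, but 18.3% in mutant and 18.8% in wild-type mesenchyme, so a Myo6 UMI alone did not mark a hair cell. Pcdh15 was found in 3.89% of wild-type hair cells and 5.43% of other wild-type epithelium. Single barcodes rarely showed several of the genes at this depth, with 3 or more of the 8 in 2 of 12 mutant and 18 of 283 wild-type hair cell barcodes (6.36% of the wild-type ones), and in 2 of 1371 mutant and 1 of 1270 wild-type barcodes of other epithelium.

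The 12 mutant hair cell barcodes were of 2 kinds. The 4 with at least 4 markers held all 8 Lhfpl5 UMIs, all 14 Grxcr1 UMIs and the 1 Cdh23 UMI of the class, and each held 4 to 6 of the 8 genes. The other 8, with exactly 2 markers and 2057 to 148552 UMIs each, held none of these 3 genes, and 2 of them held no UMI of any of the 8. Lhfpl5 and Grxcr1 thus appeared in no mutant hair cell barcode near the limit of the rule.

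The 4 barcodes differed from each other as well. The deepest, with 64128 UMIs and 7 markers in the prosensory-like cluster, held 21 UMIs of Myo6, 8 of Espn, 7 of Pcdh15, 5 of Lhfpl5, 4 of Ush1c and 1 of Grxcr1. A barcode of the hair cell-like cluster with 4775 UMIs and 6 markers held 8 UMIs of Grxcr1, 5 of Myo6, 4 of Espn, 3 of Ush1c and 1 of Cdh23, and none of Lhfpl5. The other in that cluster, with 10879 UMIs and 5 markers, held 7 UMIs of Myo6, 3 each of Lhfpl5 and Grxcr1, 2 of Espn and 1 each of Pcdh15 and Ush1c. The last, with 41340 UMIs and 4 markers, held 5 UMIs of Myo6, 2 of Grxcr1 and 1 each of Ush1c and Myo7a. Myo6, Grxcr1 and Ush1c were in all 4, and Lhfpl5 in 2. Summed over the 4, Lhfpl5 stood at 66.0 CPM, Grxcr1 and Espn at 116 CPM each and Myo6 at 314 CPM, where wild-type barcodes with at least 4 markers stood at 227, 194, 136 and 358 CPM.

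Within the mutant, Lhfpl5 stood at 13.2 CPM in hair cells and 0.203 CPM in other epithelium, a ratio of 64.9 (17.4 to 294). Grxcr1 stood at 23.0 CPM in mutant hair cells and had no UMI in the other 2053 mutant epithelial barcodes, so it was at least 151-fold higher in the hair cells against a floor of 3 UMIs over the summed barcodes, while the exact counting interval of the ratio starts at 107.6. Myo6 was 2.23-fold higher (1.66 to 2.95) and Espn 1.55-fold higher (1.00 to 2.29) in mutant hair cells than in other mutant epithelium. Pcdh15, Ush1c and Myo7a had ratios of 0.776, 0.957 and 1.02, and Cdh23 had too few UMIs to compare. At least 2-fold higher were thus 3 of 7 genes and lower none, against 7.34% and 6.46% of all genes tested. Without the barcode that held the most UMIs of each gene, Lhfpl5 and Grxcr1 had too few UMIs to compare and Myo6 was no longer past 2-fold. The class ratios take in the 8 barcodes with exactly 2 markers. In the 4 with at least 4 markers, Pcdh15 stood at 66.0 CPM (28.5 to 130), Ush1c at 74.3 (34.0 to 141) and Espn at 116 (63.2 to 194). Other mutant epithelium stood at 44.5, 44.7 and 27.6 CPM. Myo7a had 1 UMI in those 4 barcodes.

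Between genotypes, the hair cell levels of the 8 genes as a set have no direction that these data can hold. As classed, 5 of 8 were at least 2-fold lower in the mutant and none higher, against 11.6% and 10.6% of all genes tested: Lhfpl5 at 13.2 CPM in mutant and 105 CPM in wild-type hair cells (ratio 0.125, 0.0535 to 0.248), Grxcr1 at 23.0 and 87.6 CPM (ratio 0.263), Myo6 at 87.2 and 189 CPM (ratio 0.462), Myo7a at 4.93 and 16.54 CPM (ratio 0.298, 0.0599 to 0.912, from 3 mutant UMIs), and Cdh23 at 1.64 and 6.72 CPM (ratio 0.245, 0.00597 to 1.49, from 1 mutant UMI). Espn (42.8 CPM in mutant and 66.7 CPM in wild-type hair cells), Pcdh15 (34.5 and 25.8 CPM) and Ush1c (42.8 and 32.0 CPM) did not reach 2-fold. With hair cells taken by cluster (2 mutant and 185 wild-type barcodes), 0 of the 8 were lower by 2-fold and the median log2 ratio was 1.83, against -1.43 as classed. Without barcodes of over 50000 UMIs (7 mutant and 279 wild-type barcodes left) the median was 0.07 and 1 gene was lower. Over the alternatives run, Cdh23, Grxcr1 and Myo6 turned direction in 4 each, Lhfpl5 in 1 and Myo7a in 0. Markers of other lineages moved with genotype in the same barcodes: those of mesenchyme summed to 145 CPM in mutant and 2143 CPM in wild-type hair cells (7 and 9 of 9 detected), those of red blood cells to 155 and 13553 CPM (4 and 6 of 6), and those of neurons to 44.4 and 988 CPM (5 and 7 of 7, with Snap25 and Gap43 at 0 in the mutant). By median hair cell barcode, mesenchymal markers stood at 0.590 UMIs per 10000 in the mutant and 24.4 in the wild type. Neuron markers stood at 0.176 and 7.29, but red blood cell markers at 1.02 and 2.08, far closer than their sums. The part of these markers in the ratios was not tested.

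Over the whole epithelium, hair cells included, 4 of the 8 genes were at least 2-fold lower in the mutant, where 11.6% of all genes tested were lower by that much. Lhfpl5 was 44.9-fold lower, at 0.590 CPM from 12 UMIs in mutant epithelium and 26.5 CPM from 431 UMIs in wild-type epithelium (ratio 0.0223, 0.0114 to 0.0393). Grxcr1 was 31.5-fold lower, at 0.689 CPM from 14 UMIs in the mutant and 21.7 CPM from 353 UMIs in the wild type. Cdh23 stood at 0.344 CPM in mutant and 1.97 CPM in wild-type epithelium (ratio 0.175, 0.0652 to 0.403), and Myo6 at 40.5 and 83.6 CPM (ratio 0.484, 0.444 to 0.528). The other 4 were within 2-fold. Myo7a stood at 4.82 CPM in mutant and 6.64 CPM in wild-type epithelium (ratio 0.726, 0.546 to 0.963) and Espn at 28.1 and 32.7 CPM (ratio 0.860, 0.763 to 0.969). Pcdh15 stood at 44.2 CPM in mutant and 31.1 CPM in wild-type epithelium (ratio 1.42, 1.27 to 1.59), and Ush1c at 44.6 and 30.8 CPM (ratio 1.45, 1.30 to 1.62). The median log2 ratio was -0.75 over the 8 and 0.03 over all genes tested.

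Hair cell barcodes held 2.99% of mutant and 23.8% of wild-type epithelial UMIs, and each level over the whole epithelium is the sum of a part from them and a part from the rest. The wild-type Myo6 level of 83.6 CPM divides into 44.9 CPM from hair cell barcodes and 38.7 CPM from the rest, and the mutant level of 40.5 CPM into 2.61 and 37.9 CPM. For Espn, hair cell barcodes gave 1.28 CPM and the rest 26.8 CPM in the mutant, and 15.9 and 16.8 CPM in the wild type. For Pcdh15 they gave 1.03 and 43.2 CPM in the mutant and 6.15 and 24.98 CPM in the wild type. All these parts are scaled to the UMIs of the whole epithelium, of which other epithelium is a larger share in the mutant, so the levels within other epithelium are given on their own total.

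**Figure D3:**
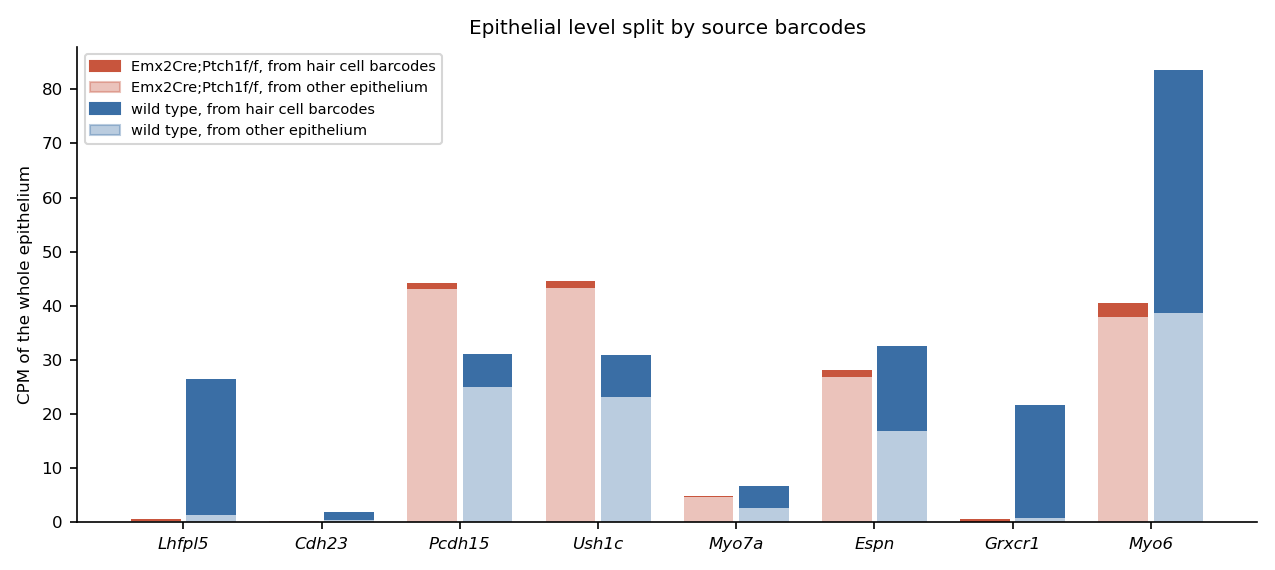
Level of each gene over the whole epithelium in CPM, split into the part from hair cell barcodes (dark) and from other epithelial barcodes (light), in Emx2Cre;Ptch1f/f (left bar of each pair) and wild-type (right bar) libraries. The dark part is 44.9 of 83.6 CPM for wild-type Myo6 and 2.61 of 40.5 CPM for mutant Myo6.

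Outside the hair cell class, 2 of the 8 genes were at least 2-fold lower in mutant epithelium, where 9.83% of all genes tested were, and none was 2-fold higher, where 5.88% were. Lhfpl5 had 4 UMIs in mutant and 23 UMIs in wild-type other epithelium, 0.203 and 1.86 CPM (ratio 0.109, 0.0275 to 0.320). Grxcr1 had 0 UMIs in mutant and 14 UMIs in wild-type other epithelium, at least 7.43-fold lower in the mutant against a floor of 3 UMIs, with an exact counting interval of the ratio up to 0.189. At equal depth 0 of 1371 mutant barcodes had a Grxcr1 UMI, which by the same 3 counts allows up to 0.219% of barcodes with a UMI and sets no limit on cells that express the gene. In the wild type, 18 of the 23 Lhfpl5 UMIs and 11 of the 14 Grxcr1 UMIs lay in barcodes with 1 hair cell marker. Without barcodes holding other lineages' transcripts, fewer than 10 UMIs of each gene were left over both libraries, too few to compare.

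Ush1c, Pcdh15 and Espn were higher in other epithelium of the mutant, by less than 2-fold. Ush1c stood at 44.7 CPM in mutant and 30.4 CPM in wild-type other epithelium (ratio 1.47, 1.30 to 1.66). Pcdh15 stood at 44.5 and 32.8 CPM (ratio 1.36, 1.21 to 1.53) and Espn at 27.6 and 22.0 CPM (ratio 1.25, 1.08 to 1.46). Myo6 was lower, at 39.0 CPM in the mutant and 50.8 CPM in the wild type (ratio 0.769, 0.691 to 0.856). Myo7a (4.82 and 3.55 CPM) and Cdh23 (0.304 and 0.485 CPM) had ratio intervals that include 1. Median depth differed here, at 3692 UMIs per mutant and 7100.5 per wild-type barcode, as did summed transcripts of other lineages. Mesenchymal markers stood at 177 CPM in mutant and 1349 CPM in wild-type other epithelium, and red blood cell markers at 250 and 2231 CPM. By median barcode, mesenchymal markers stood at 0 UMIs per 10000 in the mutant and 11.5 in the wild type. Red blood cell markers stood at 2.30 and 1.61, not lower in the mutant. Without barcodes holding such transcripts (1149 mutant and 439 wild-type left) Pcdh15 stood at 46.6 CPM in the mutant and 48.2 CPM in the wild type and Espn at 29.2 CPM in both, so that neither was higher in the mutant. Over the whole epithelium without them, Pcdh15 was not higher in the mutant either (log2 ratio -0.10). Ush1c in other epithelium was still higher, at 44.1 and 36.9 CPM (ratio 1.19, 1.03 to 1.39), and Myo6 lower, at 36.4 and 46.1 CPM (ratio 0.790, 0.684 to 0.915).

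Epithelial clusters divided Pcdh15, Espn and Ush1c further. Barcodes of the hair cell class are left out of these levels. A medial epithelium-like cluster named from Smoc2, Otoa and Epyc, genes of the region that gives the inner side of the duct, held 213 mutant and 375 wild-type barcodes and the highest levels of Pcdh15 and Espn among the named clusters. Pcdh15 stood there at 128 CPM in the mutant and 62.1 CPM in the wild type (447 and 279 UMIs; ratio 2.06, 1.77 to 2.40). Espn stood at 90.9 CPM in the mutant and 43.0 CPM in the wild type (318 and 193 UMIs; ratio 2.11, 1.76 to 2.54). Both were past 2-fold in this cluster and no other of the 8 was, against 5.19% of all genes tested that were higher by that much and 4.34% that were lower, while Ush1c (30.3 and 28.9 CPM) and Myo6 (54.6 and 48.1 CPM) had ratio intervals that include 1. Lhfpl5 and Cdh23 had no UMI there in either library. Median depth was 10914 UMIs per mutant and 8601 per wild-type barcode. Without barcodes holding other lineages' transcripts (161 mutant and 270 wild-type left) the ratios were 2.01 for Pcdh15 and 2.11 for Espn, and without barcodes of over 50000 UMIs 1.91 and 2.39. At Leiden resolution 2 this cluster divided into a part with Smoc2 and Otoa that held 213 mutant and 170 wild-type barcodes, and a part with Epyc and Calb1 that held 185 wild-type barcodes and 0 mutant ones. In the part with both libraries, Pcdh15 stood at 128 CPM in the mutant and 95.5 CPM in the wild type (ratio 1.34, 1.13 to 1.59) and Espn at 90.9 and 56.8 CPM (ratio 1.60, 1.29 to 1.99), so neither was past 2-fold. Ush1c (30.3 and 19.6 CPM, ratio 1.55, 1.07 to 2.28) and Myo6 (54.6 and 40.6 CPM, ratio 1.34, 1.04 to 1.76) were higher there as well. In the wild-type part without mutant barcodes Pcdh15 stood at 34.0 CPM and Espn at 31.8 CPM.

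A second medial-like cluster, named with Tecta, the gene of a tectorial membrane protein, held 406 mutant and 114 wild-type barcodes. Espn stood there at 21.8 CPM in the mutant and 9.75 CPM in the wild type, from 151 and 14 UMIs (ratio 2.23, 1.29 to 4.18), where 7.35% of genes tested were at least 2-fold higher and 4.26% lower. Pcdh15 stood at 37.2 and 34.1 CPM (ratio 1.09, 0.801 to 1.51), an interval that includes 1. At resolution 2 this cluster divided into parts of 210 mutant and 32 wild-type barcodes, where the Espn ratio was 1.93 (0.852 to 5.42), and of 186 and 79 barcodes, where it was 2.91 (1.31 to 7.62). Myo6 had a ratio of 0.661 (0.482 to 0.921) over the cluster. Its ratios in these parts went opposite ways, at 2.02 (0.992 to 4.79) in the first and 0.335 (0.207 to 0.538) in the second. The contrast between the medial clusters itself was not tested.

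Ush1c followed another pattern. Its highest levels among the clusters named at resolution 1 were in the prosensory-like cluster, named for the precursors of hair and supporting cells, at 86.6 CPM in the mutant (347 barcodes) and 90.1 CPM in the wild type (23 barcodes). In a roof-like cluster it stood at 57.8 CPM in the mutant and 46.4 CPM in the wild type, where Pcdh15 stood at 7.02 and 9.11 CPM and Espn at 5.35 and 9.11 CPM. All 6 Cdh23 UMIs of mutant other epithelium and 4 of the 6 UMIs in wild-type other epithelium were in that roof-like cluster. In the lateral-like cluster of 362 wild-type barcodes Ush1c stood at 26.2 CPM, Pcdh15 at 11.7 CPM and Espn at 9.38 CPM. The unnamed cluster, which outside the hair cell class held 185 wild-type barcodes and 0 mutant ones, had Ush1c at 22.0 CPM, and its part of 134 barcodes that is prosensory-like at resolution 2 had 28.2 CPM. The high Ush1c level of the prosensory-like cluster therefore does not cover all prosensory-like barcodes of the wild type.

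**Figure D4:**
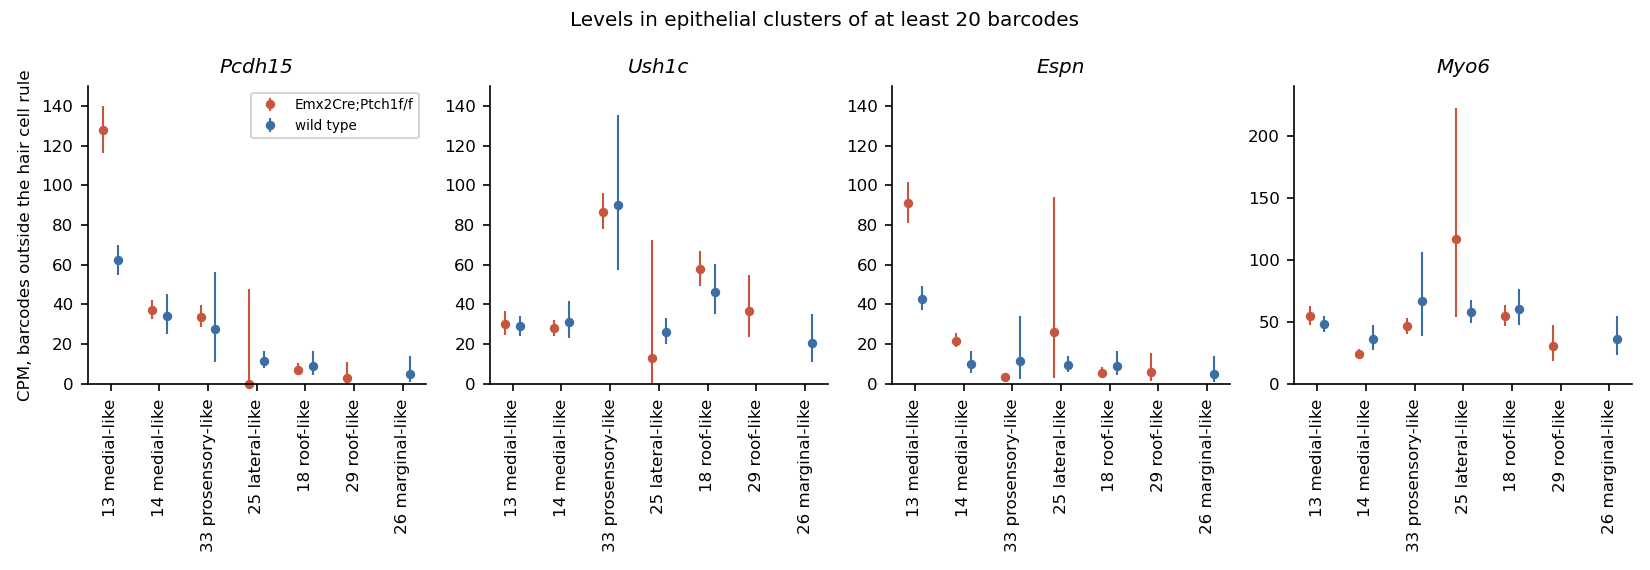
Levels of Pcdh15, Ush1c, Espn and Myo6 in CPM in named epithelial clusters with at least 20 barcodes in a library, hair cell barcodes left out, with exact Poisson 95% intervals, for Emx2Cre;Ptch1f/f (left of each pair) and wild type. Pcdh15 and Espn peak in medial-like cluster 13, at 128 and 90.9 CPM in the mutant, and Ush1c in the prosensory-like cluster.

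The 8 genes also differed in how far they reached beyond the epithelium. Epithelium held 92.2% of all Ush1c UMIs in the mutant and 86.1% in the wild type, 91.2% and 88.1% of those of Espn, and 76.1% and 79.4% of those of Pcdh15. For Myo6 it held only 10.2% in the mutant and 25.6% in the wild type. Myo6 stood at 116 CPM in mutant and 108 CPM in wild-type mesenchyme, 121 and 126 CPM in pericytes, and 8.25 and 2.75 CPM in macrophages. Clusters given no cell class held more Myo6, at 195 CPM in the mutant and 155 CPM in the wild type. Wild-type hair cells stood at 189 CPM. Myo7a was highest in melanocytes, the pigment cells of the future stria vascularis, at 83.8 CPM in the mutant (28 UMIs) and 69.2 CPM in the wild type (34 UMIs), and in macrophages stood at 42.4 and 35.8 CPM. In the wild type both stand above its 16.54 CPM in hair cells. Cdh23 had no UMI in neurons, glia, pericytes, macrophages, melanocytes or red blood cells of either library.

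Cochlear neurons held the hair cell genes Grxcr1 and Lhfpl5. Grxcr1 stood at 41.8 CPM in mutant and 13.6 CPM in wild-type neurons (68 and 64 UMIs; ratio 3.07, 2.15 to 4.39), in 37 of 68 mutant barcodes (54.4%) and 46 of 430 wild-type barcodes (10.7%). Among all genes tested in neurons 3.67% were at least 2-fold higher and 14.5% lower in the mutant. Myo7a was past 2-fold higher as well, from 7 mutant and 10 wild-type UMIs (ratio 2.02, 0.653 to 5.89). Pcdh15, Ush1c and Espn were past 2-fold lower. Pcdh15 had 2 mutant and 25 wild-type UMIs (ratio 0.231, 0.0265 to 0.927), and Ush1c 1 and 12 UMIs (ratio 0.241, 0.00563 to 1.63). Espn had 1 and 9 UMIs (ratio 0.321, 0.00733 to 2.32). Myo6 stayed within 2-fold (ratio 0.769, 0.596 to 0.982). Lhfpl5 stood at 9.84 CPM in mutant and 9.36 CPM in wild-type neurons. The 10 hair cell markers summed to 1734 CPM in mutant and 871 CPM in wild-type neurons. Pvalb alone gave 1731 and 859 CPM of these. Of the other markers, Pou4f3 and Ccer2 had 0 and 1 UMIs in mutant neurons, and 5 and 44 UMIs in wild-type neurons. Mutant neurons were deeper, at a median of 22941.5 UMIs against 5732.5 in the wild type, and fewer held other lineages' transcripts, 8.82% against 77.0%. Without those barcodes (62 mutant and 99 wild-type left, at medians of 23603 and 16849 UMIs), the Grxcr1 ratio was 2.18 (1.44 to 3.35). At 2000 UMIs per barcode, 7.46% of mutant (2.47 to 16.6%) and 2.33% of wild-type neurons (1.12 to 4.24%) had a Grxcr1 UMI. At Leiden resolution 2 the neuron cluster held 68 mutant but only 230 wild-type barcodes, and Grxcr1 was not compared there. As classed at resolution 1, neurons held 68 of the 84 mutant Grxcr1 UMIs and 64 of the 422 wild-type ones.

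Over the 21 sums of a class in a library with at least 20 barcodes, which leave out the mutant hair cells, Lhfpl5 and Grxcr1 had the most alike levels of any pair (Pearson's r 0.97 on the log2 scale). Pcdh15 and Ush1c (0.84), Ush1c and Espn (0.84), and Pcdh15 and Espn (0.79) formed a second group, and Lhfpl5 and Cdh23 stood at 0.77. Myo7a and Myo6 stood at -0.12, and their highest levels lie in different cell types. These sums share 2 libraries and differ in depth, so the values only describe the profiles. Genes with at least 50 UMIs were ranked by mean r to the 8, with the 8 and the hair cell markers left out. Of these 16006 genes, the closest were Acbd7 (0.63), Tdrd12, Gpx2, Efcab10, Tmprss3, Cd164l2, Fgf21, 1700016K19Rik, Morn5 and D930020B18Rik (0.58). The ranking therefore does not set them against markers such as Pou4f3. Tdrd12, Morn5 and Fgf21 had only 50, 58 and 64 UMIs in all. Acbd7 stood at 50.9 CPM in wild-type hair cells and 1.86 CPM in other wild-type epithelium, and Tmprss3, a protease gene in which mutations cause deafness, at 16.02 and 5.01 CPM. For single genes, Rasd2 was closest to Lhfpl5 (0.98), Nhlh1 to Grxcr1 (0.97), Gad2 to Cdh23 (0.98) and Rab25 to Ush1c (0.97).

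A list of 43 further bundle genes, of which 42 had a row, was read in the same comparisons. At least 2-fold higher in wild-type hair cells than in other epithelium were 21 of the 34 with enough UMIs, and 1 was lower, against 6.68% and 6.91% of all genes tested. By role these were all 4 channel complex genes with enough UMIs, of 6 listed, with Tmc1 among them from few UMIs. They also took in 4 of 6 ankle link genes (fine links at the stereocilium base). Of the actin core they were 6 of 13 genes, and of the base and membrane 6 of 9. Cib2, a channel subunit, stood at 201 CPM in wild-type hair cells and 31.3 CPM in other wild-type epithelium (ratio 6.42, 5.67 to 7.27). Grxcr2, the relative of Grxcr1, had 72 UMIs in wild-type hair cells and 1 UMI in other wild-type epithelium (ratio interval 40.1 to 9226). Tomt, needed to carry TMC proteins to the bundle, had 46 and 6 UMIs (ratio 24.5, 10.5 to 70.3). The actin bundler gene Pls1 stood at 61.8 CPM in wild-type hair cells and 86.8 CPM in other epithelium, the bundle polarity gene Gnai3 at 69.5 and 88.5 CPM, and Clic5, which acts at the stereocilium base, at 21.7 and 56.0 CPM (ratio 0.388, 0.305 to 0.487). Tmc1, a pore subunit of the channel, stood at 2.33 CPM from 9 UMIs in wild-type hair cells and 0.969 CPM from 12 UMIs in other wild-type epithelium. Tmc2, the pore subunit that precedes TMC1 in young hair cells, had 0 UMIs in the epithelium of either library.

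**Figure D5:**
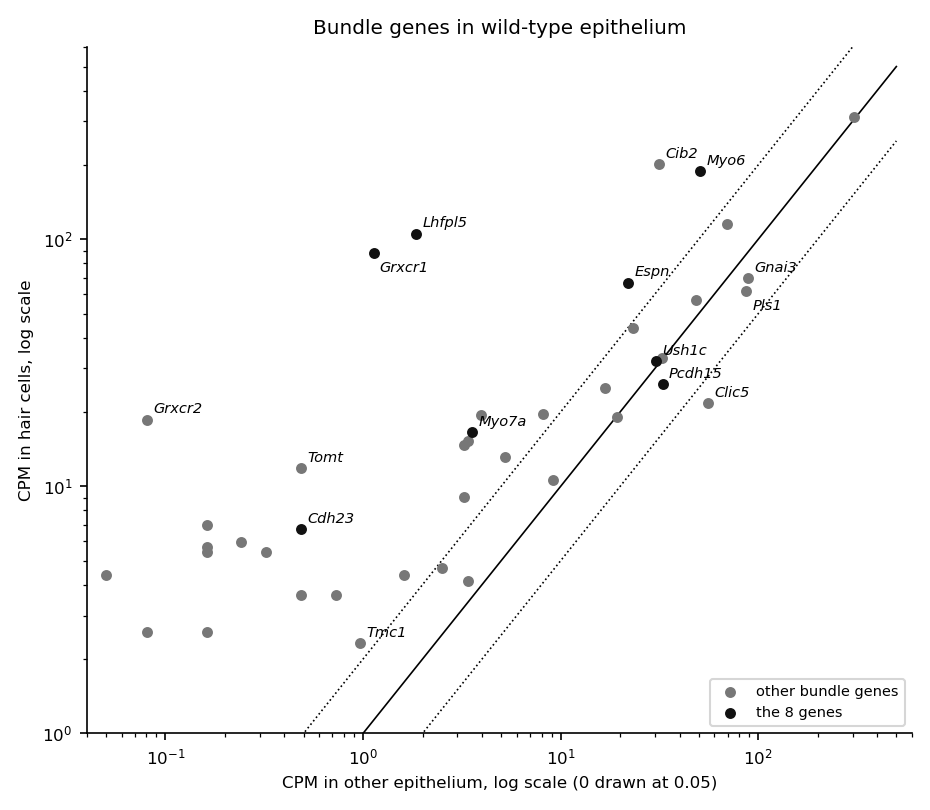
Level in wild-type hair cells against level in other wild-type epithelium, both in CPM on logarithmic axes (0 drawn at 0.05), for the 8 genes and the further bundle genes with at least 10 UMIs over both, with equality as a solid line and 2-fold as dotted lines. Lhfpl5, Grxcr1, Grxcr2 and Tomt lie far above the upper dotted line and Clic5 below the lower one.

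Over the whole epithelium, 14 of 34 of the further genes were at least 2-fold lower in the mutant and 2 higher, against 11.6% and 5.63% of all genes tested, with a median log2 ratio of -0.53. The lowest ratios were those of Grxcr2 (2 UMIs in mutant and 73 in wild-type epithelium, ratio interval 0.00260 to 0.0820), Tomt (3 and 52 UMIs, 0.00921 to 0.142) and Xirp2, an actin-binding gene of stereocilia (3 and 29 UMIs, 0.0161 to 0.267). Tmc1 had 6 UMIs in mutant and 21 in wild-type epithelium (ratio 0.228, 0.0754 to 0.585). The ankle link genes Whrn (10.0 CPM in mutant and 3.57 CPM in wild-type epithelium) and Adgrv1 (10.4 and 5.97 CPM) and the base gene Ripor2 (5.66 and 2.28 CPM) had the highest ratios. In other epithelium the same 3 were the highest, with Ripor2 at 5.63 CPM in the mutant and 1.62 CPM in the wild type, Adgrv1 at 10.4 and 3.23 CPM and Whrn at 9.89 and 3.39 CPM. The lowest there were Fscn1, an actin bundler gene, at 32.6 and 69.7 CPM, the channel gene Tmie at 1.62 and 3.39 CPM and Clic5 at 30.3 and 56.0 CPM, and Tmc1 had 5 UMIs in the mutant and 12 in the wild type. In all, 3 of 24 were at least 2-fold higher and 3 lower in mutant other epithelium, against 5.88% and 9.83% of all genes tested.

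In the few mutant hair cell barcodes, 6 of 23 further genes were at least 2-fold higher than in other mutant epithelium and 1 lower, against 7.34% and 6.46% of all genes tested. Tmie stood at 14.8 CPM in mutant hair cells and 1.62 CPM in other mutant epithelium, Atp2b2, the bundle's calcium pump, at 18.1 and 4.26 CPM, and Cib2 at 52.6 and 18.2 CPM. Clic5 (14.8 and 30.3 CPM), Clrn1 (3.29 and 4.87 CPM) and Vezt (28.0 and 40.8 CPM) had the lowest ratios. Set against wild-type hair cells, 6 of 34 were at least 2-fold lower in mutant ones and 1 higher, against 11.6% and 10.6% of all genes tested, and over 18 alternatives the counts ran between 0 and 15 lower and between 0 and 13 higher. Clrn1, whose protein is mutated in Usher syndrome, stood at 3.29 CPM in mutant and 19.4 CPM in wild-type hair cells (ratio 0.1697, 0.0202 to 0.635), Grxcr2 at 3.29 and 18.6 CPM (ratio 0.177, 0.0210 to 0.662) and Cib2 at 52.6 and 201 CPM. Gnai3 (110.2 and 69.5 CPM), Eps8, a stereocilium tip gene (29.6 and 19.1 CPM), and Atp2b2 (18.1 and 13.2 CPM) had the highest ratios. Tmc1 had 1 UMI in mutant and 9 in wild-type hair cells, with a ratio interval of 0.0161 to 5.10. These values rest on the same 12 mutant barcodes as those of the 8 genes.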

How the data were processed

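Single cells of dissected E16.5 cochleae, digested and strained, were captured with a 10x Genomics 3′ kit. The labels' protocol names version 3.1 for both libraries, while the sample descriptions name 3.1 for the wild type and another version for the mutant. Values are the authors' deposited counts, whole UMIs of a gene in a barcode, with no normalization. The submitters' processing notes name Cell Ranger 6.0.0 and the mm10 build, and per the file headers the mutant counts came from Cell Ranger 5.0.1.

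A barcode needed 1000 UMIs, 500 genes and no more than 10% of UMIs from mitochondria, which left 9373 in the mutant and 6440 in the wild type. Scrublet's automatic threshold called 0 doublets in each, so it had not worked, and the top-scored 0.8% per 1000 barcodes were removed, 703 in the mutant and 332 in the wild type. Median depth of kept barcodes was 8151 UMIs in the mutant and 7272.5 in the wild type. Both libraries were clustered together without batch correction (scanpy 1.11.5, igraph 0.11.9, scikit-learn 1.9.0, Python 3.11.15; 2000 variable genes, 30 components, 15 neighbours, Leiden resolution 1), giving 34 clusters. Clusters were classed from 17 marker lists. The rule for naming epithelial clusters was settled after the data were seen.

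UMIs were summed per class and library and scaled to CPM. CPM of 3′ tags are not corrected for length, so genes are not ranked by level. Genes with at least 10 UMIs over both sums were compared and called at 2-fold. With 1 library per genotype there is no test and no p-value. A sum of 0 was set to a floor of 3 UMIs. Scripts were tested on simulated data (numpy 2.4.6, scipy 1.17.1). Figures used matplotlib 3.10.9. Promoters are from RefSeq.

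The 8 genes, the further list and the markers were chosen with earlier results of these data known. Named from the further list were Tmc1, Tmc2 and, per comparison, the 3 highest and 3 lowest ratios among genes with at least 30 UMIs, and by profile the 10 genes with the highest mean r. Alternatives changed the marker rule, thinning, scaling, UMI minimum, weighting, doublets, mixed barcodes, clustering and very deep barcodes. Those without Pvalb, without barcodes over 50000 UMIs, without the unnamed cluster, at resolution 2 in the medial clusters, and within single clusters and neurons were chosen after seeing the data.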

Additional observations from a re-analysis of the deposited data

How the results depend on the processing

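No paired analysis was possible because there is 1 library per genotype. In wild-type hair cells against other epithelium, 5 or 6 genes were at least 2-fold higher under all 18 alternatives run, and the median log2 ratio of 2.06 was 2.53 with at least 3 markers, 2.98 after thinning to 2000 UMIs, 1.37 with 5 CPM added, 3.79 without mixed barcodes (those with other lineages' transcripts) and 2.45 without Pvalb in the rule. Of the further genes 21 were higher, 10 with 5 CPM added and 9 with at least 50 UMIs, where 21 rather than 34 could be compared.

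The hair cell share of 0.138% in the mutant was 0.0461% with at least 3 markers, 0.0231% by cluster, 0.242% with the rule applied in all classes and 0.0403% after thinning. In the wild type the share of 4.63% was 2.59%, 3.03%, 5.68% and 1.70% in the same order, and 3.87% with doublet-scored barcodes kept, 0.399% without mixed barcodes, 2.996% without Pvalb and 2.91% without the unnamed cluster. The wild-type value without mixed barcodes rests on 20 hair cell barcodes.

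Between genotypes in hair cells the direction of the median turned in 4 of 18 alternatives. Not every gene turned: Myo7a, with few mutant UMIs, ran from -3.02 to 0, and Lhfpl5 turned in 1 alternative only. By cluster the log2 ratios were 0.33 for Lhfpl5, 2.73 for Cdh23, 2.49 for Grxcr1 and 1.61 for Myo6. After thinning they were 1.73 for Cdh23, 1.60 for Grxcr1 and 0.73 for Myo6, with equal weight per barcode 1.86, 0.87 and 0.14, and without barcodes over 50000 UMIs 0.64 for Cdh23 and 0.63 for Grxcr1. Myo6 stood at 0.21 with at least 3 markers. The median of -1.43 was -0.025 with at least 3 markers, 1.83 by cluster, 0.98 thinned, 0.83 with equal weight, -2.79 without mixed barcodes and 0.073 without those over 50000 UMIs. The count of 5 lower genes was 2, 0, 0 and 2 under the first 4 of these, 3 with doublet-scored barcodes kept and 1 without those over 50000 UMIs. The cause was not tested. Those that leave out barcodes keep 2, 3, 4, 7 or 11 of the 12 mutant ones.

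In mutant hair cells against other epithelium, the median of 0.63 was 2.07 with at least 3 markers, 3.78 by cluster, 3.60 thinned, 2.13 with equal weight and -0.091 without each gene's top barcode. The count of 3 higher genes was 5 by cluster and 5 thinned, 1 with at least 50 UMIs and 0 without the top barcodes. These last settings left 5 of 7 genes to compare, without Lhfpl5 and Grxcr1, which had too few UMIs, so those calls were dropped rather than reversed. In other epithelium the count of 2 lower genes was 0 with 5 CPM added, 0 with at least 50 UMIs and 0 without mixed barcodes, where Lhfpl5 and Grxcr1 had too few UMIs under the last 2 and 5 of 8 genes could be compared. Over the whole epithelium the median of -0.75 was -0.31 with 5 CPM added, -0.46 with at least 50 UMIs and -1.09 without mixed barcodes, and the count of 4 lower genes was 2 with 5 CPM added.

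The median over the 8 genes of the share of hair cell barcodes with a UMI, 8.33% in the mutant and 7.77% in the wild type at 2000 UMIs, was 45.8% and 32.2% with all UMIs, and 22.7% and 13.6% at 4000 UMIs. The first medial-like cluster lost its 2-fold calls of Pcdh15 and Espn at resolution 2, in the part that holds both libraries.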
